A study of Homo sapiens with 2 samples.

Results

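Ephrins, Eph receptors, semaphorins, plexins and neuropilins were examined in HaCaT cells, an immortal human keratinocyte line that arose without a viral gene, after long exposure to arsenic trioxide. Members were taken by gene symbol alone, which gave 66 of the 30968 probes and 50 genes. These were 6 ephrin ligands, 13 Eph receptors, 20 semaphorins, 9 plexins and 2 neuropilins. Exposed cells were kept in 0.5 µg/ml arsenic trioxide until passage 22, and the passage control cells, called control cells below, reached passage 22 without it. Both groups were the HaCaT line in the same serum-containing medium, and each was 1 line of cells. Effects of exposure and drift between the lines therefore cannot be told apart. Each group had 4 RNA preparations on 3 arrays each, which the design text calls technical replicates. The table holds 1 combined normalized intensity, 1 error and 1 detection p-value for each probe in each group, so variation among arrays could not be read and no test over replicates was computed.

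Ephrins are ligands fixed to the surface of one cell that bind Eph receptor tyrosine kinases on a neighbouring cell, and both partners can signal. A-type ephrins hold to the membrane by a lipid anchor and B-type ephrins span it. Semaphorins are secreted or membrane-bound ligands whose receptors are the plexins, helped for most secreted class 3 semaphorins by neuropilins. Both systems are known from the guidance of growing axons. In epidermis Eph receptors and ephrins take part in contact between keratinocytes, and semaphorins in cell movement and in signals to nerve endings and immune cells.

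PLXNA2, SEMA3F and EPHB2 were lower in exposed cells and SEMA7A was higher, and the other 20 measured members were not called. SEMA7A rose 1.995-fold, PLXNA2 fell 1.77-fold, SEMA3F fell 1.45-fold and EPHB2 fell 1.33-fold relative to the median probe. Calls rest on the p-values of the authors' deposited table after Benjamini-Hochberg adjustment over 7682 measured genes, with 0.05 as the limit. Of all measured genes 5.69% were called, 3.12% higher and 2.56% lower. The 4 calls among 24 measured members were a larger share than that, a difference that was not tested. No called member reached 2-fold and 2 reached 1.5-fold, against 0.82% and 2.94% of all measured genes. The test behind the deposited p-values is unstated, and with 1 line of cells per group they hold no variation between separately exposed lines. In such bulk samples, fewer cells of a type and less RNA per cell cannot be told apart.

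Exposed cells had the lower intensities across the whole array, at a median log2 ratio of -0.43 (1.35-fold lower) among 9915 probes detected in both. Log2 ratios are given after subtraction of this median unless stated otherwise, with an error propagated from the deposited errors. An intensity is followed by its deposited error. What the deposited error measures is not stated, so neither error can be read as an SD. A probe was detected at a detection p-value below 0.05, and the lowest detected intensity was 54.4 in exposed and 81.7 in control cells. All 5 keratinocyte markers with a probe of their own (KRT5, KRT6A, TP63, DSG3 and SFN) were detected in both groups. Of the other cell types, 2 of 7 melanocyte, 5 of 10 fibroblast, 2 of 9 leukocyte, 1 of 5 endothelial and 1 of 5 neuronal markers were measured. A measured gene is one with a ratio or a bound. The melanocyte marker MITF had neither but was detected in exposed cells alone, at 54.4 ± 5.33 against 48.9 ± 4.96 in control cells. Of the 2 leukocyte markers CD14 was called lower, at a log2 ratio of -0.70 ± 0.18, and CD68 stood at 0.49 ± 0.23 without a call, while PTPRC was not detected in either group. Of the 5 fibroblast markers S100A4 stood at -0.67 ± 0.19, LUM at -0.53 ± 0.61 and COL1A1 at -0.12 ± 0.22. PDGFRB stood at 0.05 ± 0.29, and COL1A2 had a bound of 0.06 that leaves out the errors. None of these 5 was called, and COL3A1, PDGFRA, DCN, THY1 and FAP were not detected. Summed intensities before scaling, which hold the 1.35-fold shift of the array, were 1044 in exposed and 1724 in control cells for the 9 leukocyte markers. They were 907 in exposed and 1631 in control cells for the 10 fibroblast markers. These sums include markers that were not detected. CD14 alone read 545 in exposed and 1190 in control cells, and S100A4 alone read 372 in exposed and 795 in control cells. The part of these markers in the results was not tested. Without centring, 44.0% of all called genes were higher, against 54.9% with it.

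**Figure D1:**
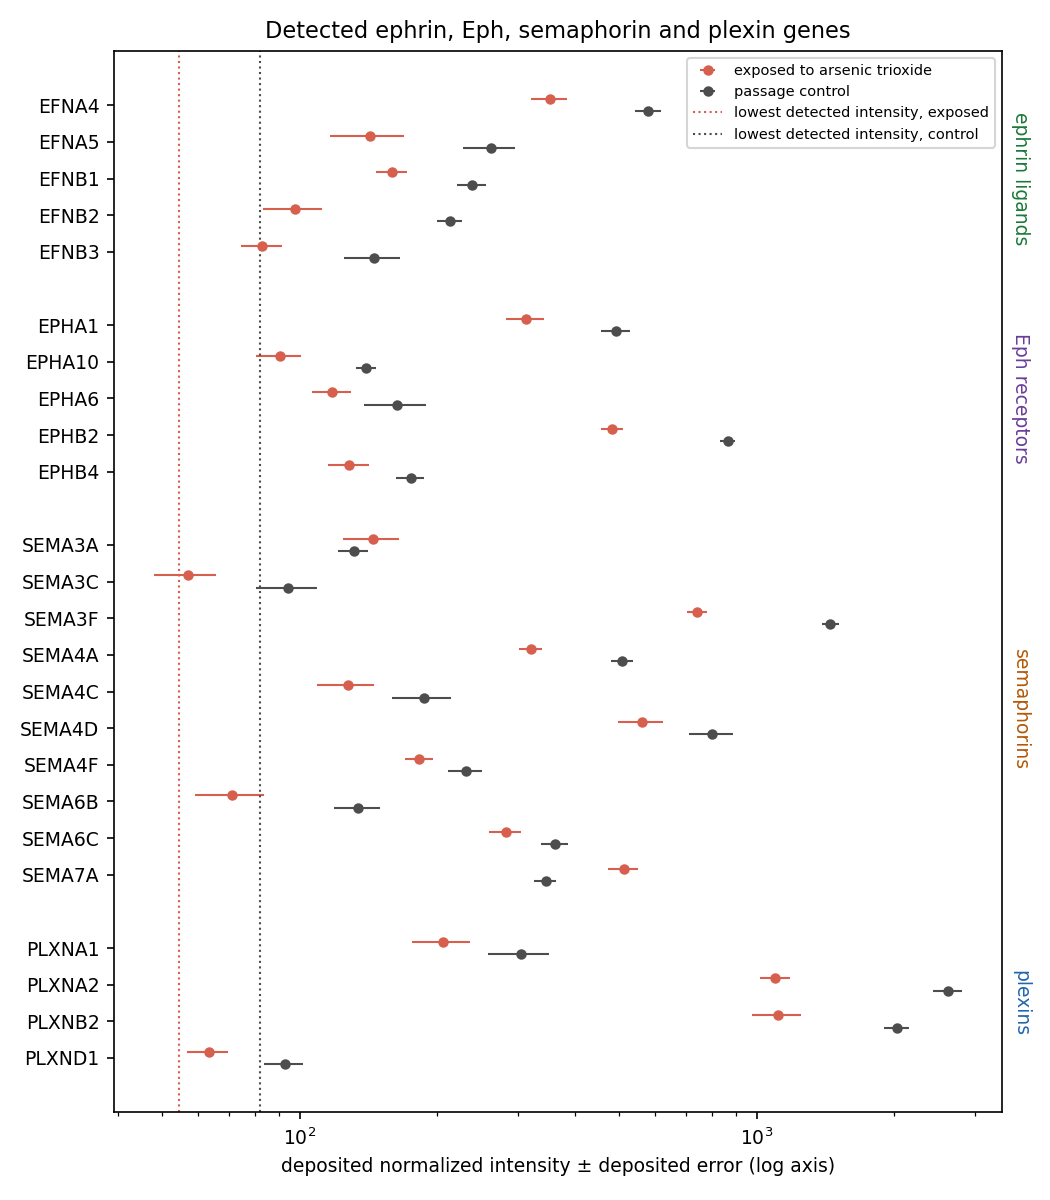
Deposited normalized intensity of each family gene detected in at least 1 group (log axis), with the deposited error as a bar, for exposed cells above and control cells below in each row. Only SEMA7A and SEMA3A had the higher intensity in exposed cells.

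EPHA2 and EFNA1, the receptor and ligand given as markers of this family in these cells, were not detected in either group. EPHA2, an A-type Eph receptor, read 9.97 in exposed and 9.97 in control cells. EFNA1, its ligand, read 46.8 ± 12.8 in exposed and 66.9 ± 13.5 in control cells. Each is represented by 1 probe, and whether the probe or the transcript sets this was not tested. The 24 measured genes therefore describe other members of the family. With these 2, a total of 26 genes went undetected in both groups.

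The promoters of the 4 called genes are shown because these are the members whose values differed. Each window runs from 250 bases before to 50 after the annotated start, in RefSeq's annotation of GRCh38.p14, 5′ to 3′ on the strand of the gene. Capitals mark every match, on either strand, to GGGCGG (the GC box) or GAANNTTC (a pair of heat shock element units).
SEMA7A promoter, chr15:74433909-74434208, minus strand: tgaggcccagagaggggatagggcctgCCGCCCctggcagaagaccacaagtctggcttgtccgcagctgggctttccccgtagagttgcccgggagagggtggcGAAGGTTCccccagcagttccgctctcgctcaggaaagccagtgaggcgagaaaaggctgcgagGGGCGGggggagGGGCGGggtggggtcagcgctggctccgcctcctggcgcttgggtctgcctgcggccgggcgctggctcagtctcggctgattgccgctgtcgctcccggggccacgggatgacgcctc
SEMA3F promoter, chr3:50154808-50155107, plus strand: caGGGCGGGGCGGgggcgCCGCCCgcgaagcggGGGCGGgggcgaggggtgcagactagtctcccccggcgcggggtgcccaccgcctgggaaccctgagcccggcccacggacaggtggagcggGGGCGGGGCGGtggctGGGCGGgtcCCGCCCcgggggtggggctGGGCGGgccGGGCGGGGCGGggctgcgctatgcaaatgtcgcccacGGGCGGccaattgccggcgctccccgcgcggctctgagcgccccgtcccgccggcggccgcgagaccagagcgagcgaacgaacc
PLXNA2 promoter, chr1:208244335-208244634, minus strand: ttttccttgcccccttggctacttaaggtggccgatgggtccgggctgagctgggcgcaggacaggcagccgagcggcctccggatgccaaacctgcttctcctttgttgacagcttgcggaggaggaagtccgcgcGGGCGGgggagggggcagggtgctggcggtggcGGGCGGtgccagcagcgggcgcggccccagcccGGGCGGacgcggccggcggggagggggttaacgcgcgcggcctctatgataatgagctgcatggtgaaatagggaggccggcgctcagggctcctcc
EPHB2 promoter, chr1:22710588-22710887, plus strand: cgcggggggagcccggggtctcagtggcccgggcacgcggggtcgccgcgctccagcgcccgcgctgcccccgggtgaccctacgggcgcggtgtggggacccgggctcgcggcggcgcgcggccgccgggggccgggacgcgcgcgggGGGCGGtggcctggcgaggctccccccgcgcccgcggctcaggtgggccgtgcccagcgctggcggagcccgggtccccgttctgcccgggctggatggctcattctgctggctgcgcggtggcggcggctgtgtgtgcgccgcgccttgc
The GC box occurred 3 times in the SEMA7A window, 12 times in that of SEMA3F, 3 times in that of PLXNA2 and once in that of EPHB2. Of all 35116 windows, taken without regard to detection, 45.0% held it. So did 35 of the 44 family genes with a window, and 18 of the 20 measured ones. GC content was 70.0%, 81.3%, 70.3% and 83.0% in the same order of genes, against a median of 58.7% over all windows. The heat shock element pair was found in the SEMA7A window alone among these 4, as GAAGGTTC, and 6.77% of all windows held it. It was in 5 of the 44 family windows and 2 of the 20 measured ones. The measured genes were SEMA7A and EPHA6, which was not called. No window of the 4 held TGANTCA (the AP-1 site, in 7.71% of all windows) or TGACNNNGC (the antioxidant response element core, in 13.3%). The same was true of TATAAA (the TATA box, in 11.5%) and CACGTG (an E-box, in 7.26%). These letters describe the windows and show no binding.

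All 5 measured ephrin ligands lay below 0, at a median log2 ratio of -0.38, but none was called. Over all 7692 measured genes the median was 0.005 and 49.0% lay below 0. EFNB2, the transmembrane ligand of EPHB4, had the lowest ratio of the class. It read 97.6 ± 14.3 in exposed cells, against 213 ± 13.4 in control cells. The log2 ratio was -0.70 ± 0.23, whereas the authors' deposited table gives -0.36 with an unadjusted p-value of 0.182. EFNB3, the B-type ephrin known mainly from the nervous system, read 82.9 ± 8.40 in exposed cells and 145 ± 20.7 in control cells. This gave a log2 ratio of -0.38 ± 0.25; the authors' deposited table gives -0.64, and its deposited p-value of 0.0222 became 0.226 after adjustment. EFNB1, the B-type ephrin whose loss causes craniofrontonasal syndrome, read 159 ± 12.3 in exposed and 238 ± 17 in control cells. Its log2 ratio of -0.15 ± 0.15 was no larger than its error.

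Both measured A-type ligands also lay below 0 without a call. EFNA4 read 353 ± 32.5 in exposed cells and 579 ± 38.4 in control cells, a log2 ratio of -0.29 ± 0.16. EFNA5, a ligand of several EphA receptors, read 143 ± 26.6 in exposed cells and 262 ± 34.4 in control cells. The centred log2 ratio came to -0.44 ± 0.33, whereas the authors' deposited table gives -0.20. The remaining probes of EFNA4 and EFNA5 were not detected in either group. To compare the groups directly, exposed intensities and their errors were multiplied by 1.35. On that scale the ranges of intensity ± error lay apart for EFNA4, EFNB2 and EFNB3 and overlapped for EFNA5 and EFNB1. Ranges apart were found for 28.7% of all genes detected in both groups.

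Among Eph receptors EPHB2 alone was called, and it fell. All 5 measured receptors lay below 0 at a median of -0.20, though EPHB4 turned just above 0 with 2 other ways of processing. EPHB2, a receptor of B-type ephrins, read 483 ± 26.5 in exposed cells, against 864 ± 34.0 in control cells. After scaling the exposed value was 650 ± 35.7, so the ranges lay apart. That makes a log2 ratio of -0.41 ± 0.10; the authors' deposited table gives -0.40, and the deposited p-value adjusted here was 0.00859. It ranked 151 by size among the 197 genes called lower, whose median was -0.57. The change was small and so was its error.

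The other receptors did not pass and their scaled ranges overlapped. EPHA1, the first Eph receptor to be cloned, read 313 ± 30.4 in exposed and 492 ± 36.0 in control cells, a log2 ratio of -0.22 ± 0.18. EPHA10, a receptor without an active kinase, read 90.6 ± 10.3 in exposed and 140 ± 7.20 in control cells, a log2 ratio of -0.20 ± 0.18. The other EPHA10 probe was not detected, at 12.9 in exposed and 13.6 in control cells. EPHB4, the receptor of EFNB2, read 129 ± 13.4 in exposed and 175 ± 12.3 in control cells. Its log2 ratio of -0.02 ± 0.18 lay at the median of the array, and its adjusted p was 0.999. EPHA6 had detected signal in 2 of its 3 probes, with log2 ratios of -0.04 ± 0.27 and -0.04 ± 0.49. The brighter EPHA6 probe read 118 ± 11.5 in exposed and 164 ± 25.6 in control cells.

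Besides EPHA2, the receptor genes EPHA3, EPHA4, EPHA5, EPHA7, EPHA8, EPHB1 and EPHB6 were not detected in either group. Their brightest probes read between 4.98 and 42.1 in exposed and between 4.46 and 54.9 in control cells. EPHB2 and EPHB4 were thus the detected EphB receptors with a probe of their own, beside 3 detected B-type ligands. EPHB3 is named only by a probe shared with EIF2B5.

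**Figure D2:**
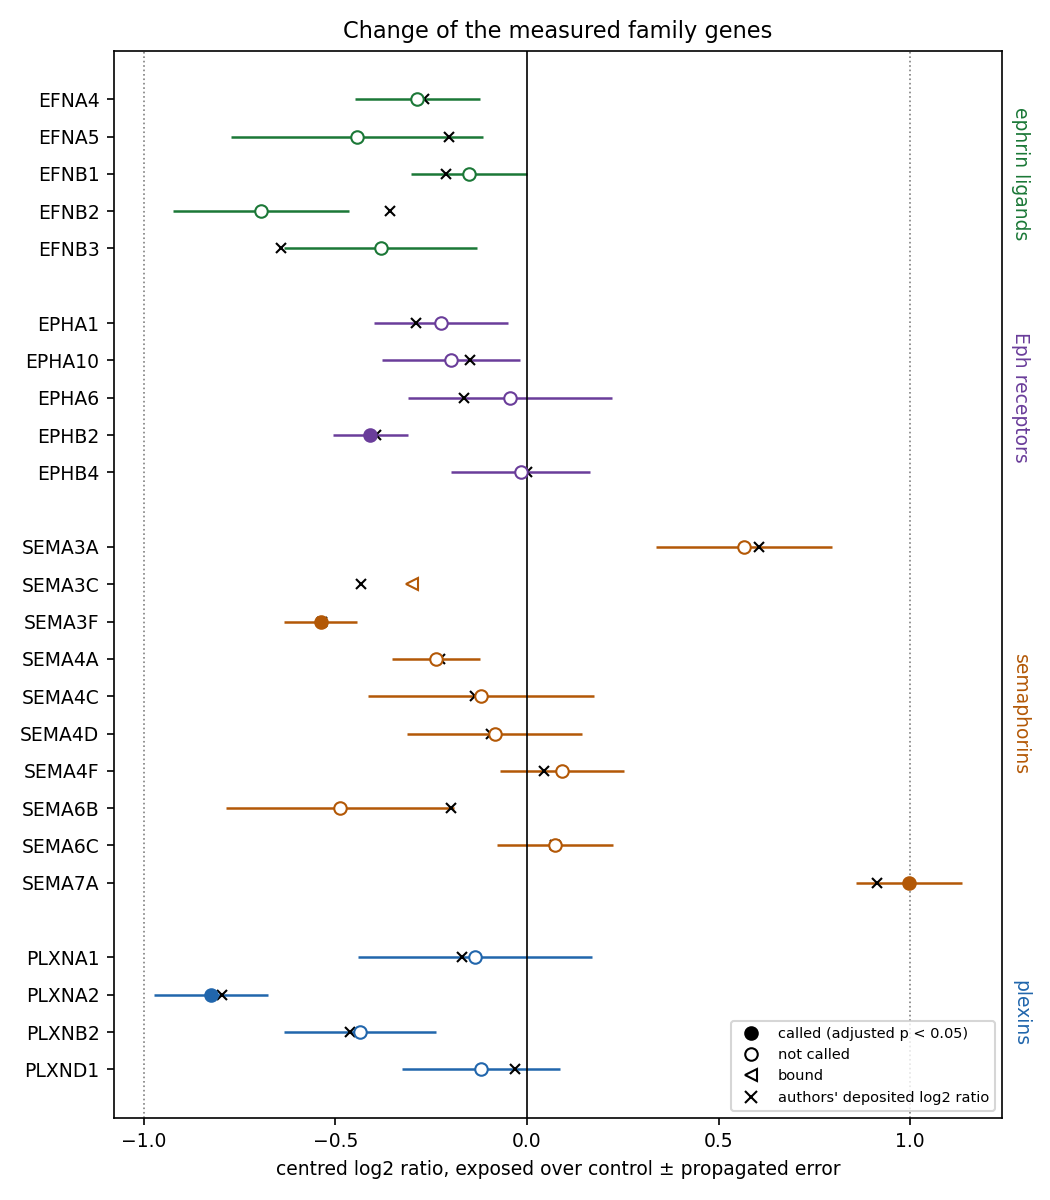
Centred log2 ratio of exposed over control cells for the 24 measured family genes, with the propagated error as a bar, and the ratio of the authors' deposited table as a cross. Filled points are called genes, the triangle is a bound, and dotted lines mark 2-fold. SEMA7A stands at 1.00 and PLXNA2 at -0.82.

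Semaphorins went in both directions, with 4 of 10 measured genes above 0, 6 below and a median log2 ratio of -0.10. SEMA7A rose and SEMA3F fell, and the other 8 did not pass. SEMA7A is held to the membrane by a lipid anchor and binds plexin C1 and integrins with the beta 1 chain. It read 511 ± 39.6 in exposed cells, against 345 ± 19.4 in control cells. It was higher in exposed cells even before scaling, with an uncentred log2 ratio of 0.57. The centred ratio was 1.00 ± 0.14; the authors' deposited table gives 0.91, and the deposited p-value adjusted here was 6.08e-06. Its 1.995-fold change lay just under 2-fold, and it ranked 34 by size among the 240 genes called higher, whose median was 0.61. The other SEMA7A probe was not detected in either group. PLXNC1, the plexin that binds SEMA7A, was not detected, at 7.08 in exposed and 4.63 in control cells. It is represented by 1 probe, and whether the probe or the transcript sets this was not tested.

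Among the secreted class 3 semaphorins, SEMA3F and SEMA3A differed in direction. SEMA3F, which binds neuropilin 2 and repels axons, read 740 ± 37.1 in exposed cells, against 1448 ± 62.2 in control cells. After scaling the exposed value was 997 ± 49.9, and the ranges lay apart. On the log2 scale the ratio was -0.54 ± 0.10; the authors' deposited table gives -0.53, and the deposited p-value adjusted here was 4.08e-06. SEMA3A, which acts through neuropilin 1 and restrains nerve fibre growth, read 144 ± 20.3 in exposed and 131 ± 9.99 in control cells. The log2 ratio was 0.57 ± 0.23, and the authors' deposited table gives 0.61. The deposited p-value adjusted here was 0.431. The scaled ranges of SEMA3A lay apart, but it did not pass. SEMA3C was not detected in exposed cells, at 56.9 ± 8.83, and read 94.5 ± 14.4 in control cells. After scaling the exposed value was 76.7 ± 11.9. The bound was 1.23-fold lower, from these readings without their errors, so it is not a firm minimum. SEMA3C was not called, and the authors' deposited table gives -0.43 on the log2 scale.

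None of the 4 measured class 4 semaphorins, which span the membrane, was called. SEMA4A, known as a signal to T cells, read 320 ± 18.6 in exposed and 508 ± 27.1 in control cells. This gave a log2 ratio of -0.24 ± 0.11 with an adjusted p of 0.382, and the scaled ranges lay apart. SEMA4D, a ligand of B-type plexins, had 3 detected probes that gave log2 ratios of -0.08 ± 0.23, -0.01 ± 0.12 and -0.11 ± 0.24. Its brightest probe read 560 ± 63.7 in exposed and 800 ± 88.1 in control cells, and all 3 ranges overlapped after scaling. SEMA4C, which binds plexin B2, read 128 ± 18.3 in exposed and 187 ± 27.2 in control cells, a log2 ratio of -0.12 ± 0.29. SEMA4F read 183 ± 12.9 in exposed and 231 ± 20.2 in control cells. Its log2 ratio of 0.09 ± 0.16 was smaller than its error and lay at -0.34 without centring.

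The class 6 semaphorins are transmembrane ligands of A-type plexins. SEMA6B read 71.2 ± 12.2 in exposed and 134 ± 15.4 in control cells. The centred log2 ratio came to -0.49 ± 0.30; the authors' deposited table gives -0.20, and it did not pass. SEMA6C read 283 ± 22.5 in exposed and 362 ± 24.9 in control cells, a log2 ratio of 0.07 ± 0.15 that lay at -0.36 without centring. The other 10 semaphorins, SEMA3B, SEMA3D, SEMA3E, SEMA3G, SEMA4B, SEMA4G, SEMA5A, SEMA5B, SEMA6A and SEMA6D, were not detected in either group. The brightest probes of these genes read between 0.15 and 29.6 in exposed and between 1.19 and 48.8 in control cells.

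PLXNA2 fell and was the one called plexin, while all 4 measured plexins lay below 0 at a median of -0.29. PLXNA2, a receptor of class 6 semaphorins and a partner of neuropilins, read 1099 ± 80.9 in exposed cells, against 2622 ± 187 in control cells. After scaling the exposed value was 1480 ± 109, well below the control range. That makes a log2 ratio of -0.82 ± 0.15; the authors' deposited table gives -0.80, and the deposited p-value adjusted here was 4.06e-09. It ranked 43 by size among the 197 genes called lower. The other PLXNA2 probe read 33.9 in exposed and 40.5 in control cells and was not detected.

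PLXNB2, a receptor of class 4 semaphorins, read 1111 ± 136 in exposed cells, against 2024 ± 128 in control cells. On the log2 scale the ratio was -0.44 ± 0.20; the authors' deposited table gives -0.46, and the ranges lay apart after scaling. The deposited p-value of 0.0153 became 0.177 after adjustment, so PLXNB2 did not pass. PLXNA1, a co-receptor of class 3 semaphorins, read 206 ± 30.0 in exposed and 305 ± 46.7 in control cells, a log2 ratio of -0.14 ± 0.31. The remaining PLXNA1 probes were not detected in either group. PLXND1, the receptor of SEMA3E, read 63.3 ± 6.57 in exposed and 92.7 ± 9.15 in control cells, near the lowest detected intensities. Its log2 ratio of -0.12 ± 0.21 was within its error.

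Both neuropilins were below detection. NRP1 read 4.68 in exposed and 4.27 in control cells. The brighter of 2 NRP2 probes read 24.9 in exposed and 23.9 in control cells. PLXNA3, PLXNA4, PLXNB1, PLXNB3 and PLXNC1 were not detected either. SEMA3F, SEMA3A and PLXNA2 were thus measured, and the neuropilins they are known to work with gave no detected signal. NRP1 rests on 1 probe and NRP2 on 2. Whether the probes or the transcripts set this was not tested, so it cannot be read as absence of the receptors.

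Receptors and ligands can be set side by side over the whole family. All 9 measured receptors lay below 0 at a median of -0.20, with EPHB4 the exception noted above, and 2 were called lower. Of 15 measured ligands 11 lay below 0, with a median of -0.24, and 1 was called in each direction. In the authors' deposited table the counts below 0 were also 9 of 9 receptors and 11 of 15 ligands. Scaled ranges lay apart in 3 of 9 receptors and in 8 of 14 ligands detected in both groups, against 28.7% of all such genes. Deposited p-values below 0.05 before adjustment were found for 6 of the 24 members, against 13.6% of all measured genes. No test of the difference between ligands and receptors was made, since the members share both groups.

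**Figure D3:**
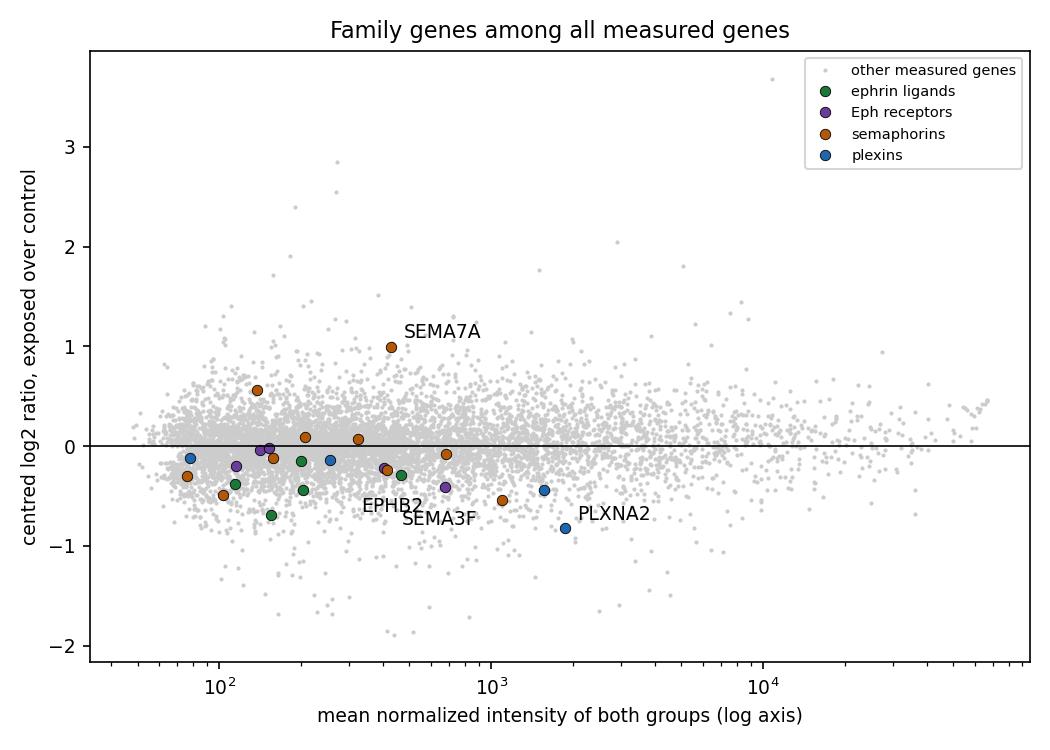
Centred log2 ratio against the mean intensity of both groups (log axis) for all 7692 measured genes, with the family genes coloured by class and the 4 called ones named. Of the 24 family genes 20 lie below 0, and none lies beyond 2-fold.

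Of 42 genes that carry or shape Eph signals, 23 were measured, with a median log2 ratio of 0.06. RASA1, a Ras GTPase activating protein that binds activated EphB receptors, was called higher and none lower. RASA1 read 348 ± 59.3 in exposed and 352 ± 26.4 in control cells. The log2 ratio of 0.41 ± 0.27 lay at -0.02 without centring, the authors' deposited table gives 0.68, and the adjusted p was 0.0458. RASA1 no longer passed with p-values adjusted over all probes, at 0.0563. The adaptor gene CRK followed at 0.28 ± 0.11 and the membrane protease gene MMP14 at -0.23 ± 0.12, with adjusted p of 0.18 and 0.203. Without centring CRK lay at -0.15, on the other side of 0, and MMP14 at -0.66.

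Of 37 genes of semaphorin and plexin signalling, 15 were measured, with a median log2 ratio of 0.02, and GSK3B was called higher. GSK3B, a kinase that phosphorylates the collapsin response mediator proteins downstream of SEMA3A, read 2411 ± 130 in exposed cells, against 1581 ± 103 in control cells. The log2 ratio was 1.04 ± 0.12, or 0.61 without centring, and the authors' deposited table gives 0.99. The deposited p-value adjusted here was 2.06e-10. CDK5, the priming kinase of the same proteins, had a log2 ratio of -0.66 ± 0.18 with an adjusted p of 0.165 and missed the limit. ERBB2, a receptor that associates with B-type plexins, had a log2 ratio of -0.26 ± 0.15 and missed the limit.

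Of 8 VEGF ligands and receptors, which share the neuropilins, 2 were measured and none was called. VEGFA was detected in exposed cells alone, at 82.8 ± 25.1 against 59.1 ± 10.4 in control cells. Its log2 ratio of 0.45 was a bound that leaves out these errors. For the bound the control value was set at 81.7, the lowest detected intensity there. Nearly all of the bound therefore came from subtracting the array median of -0.43. VEGFB had a log2 ratio of -0.004 ± 0.11.

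**Figure D4:**
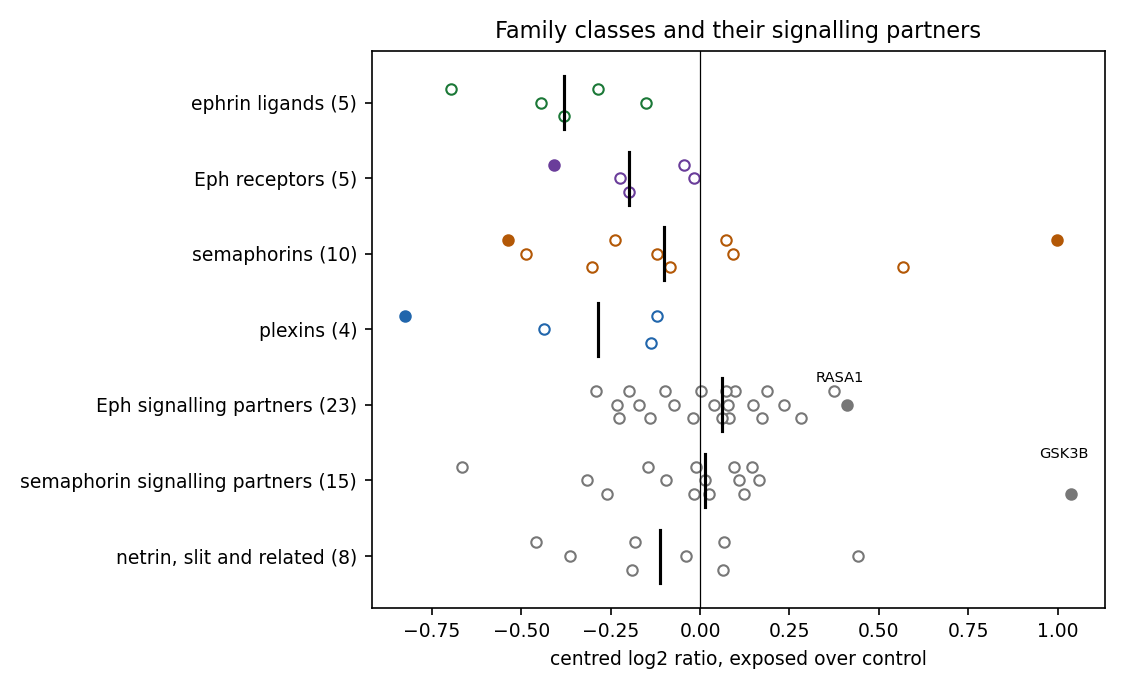
Centred log2 ratios of exposed over control cells for each measured gene of the 4 family classes and of 3 related lists, with the number measured in brackets and the median as a bar. Filled points are called genes. The class medians run from -0.38 to -0.10, and RASA1 and GSK3B are the called genes of the related lists shown.

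**Figure D5:**
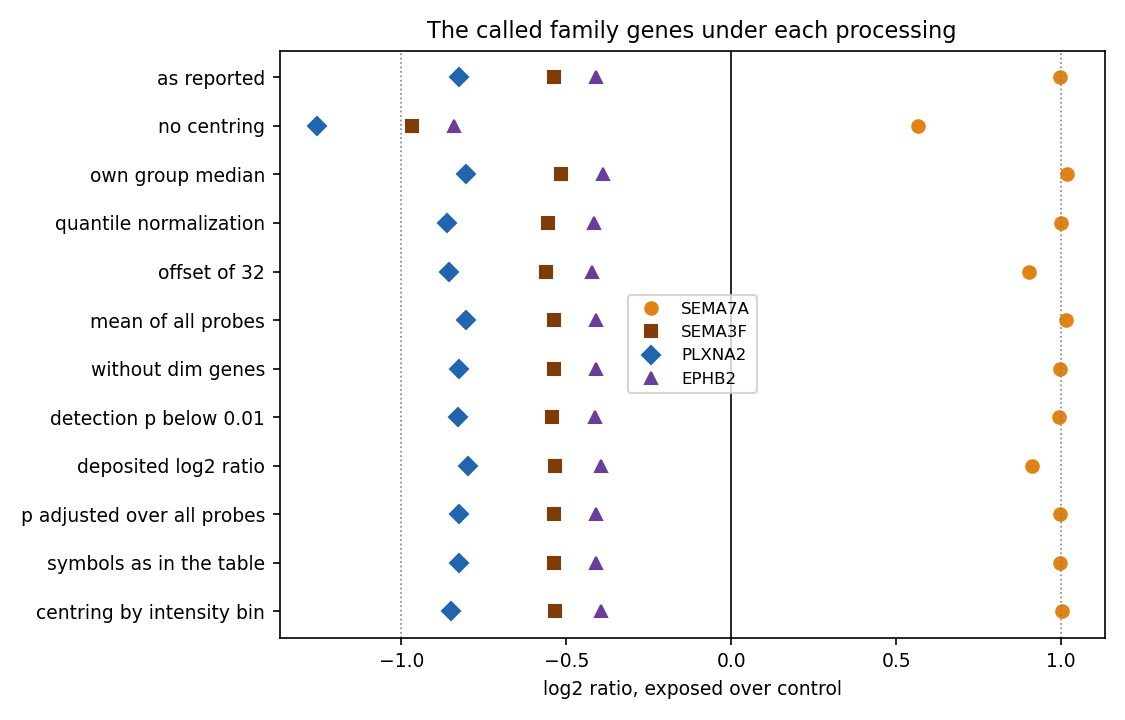
Log2 ratio of exposed over control cells for the 4 called family genes as reported and under 11 other ways of processing, one per row, with dotted lines at 2-fold. Every point keeps the side of 0 on which it was reported.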

How the data were processed

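Per the labels' protocols, amplified RNA carried amino-allyl UTP to which Cy5 was joined, 1 dye per array. How arrays were scanned, corrected and normalized, and on which genome build, was not given in the sources used here. Per the file headers, the authors deposited a normalized intensity, its error in the same unit and a detection p-value per probe and group, and a log2 ratio and p-value of their comparison. Neither the test nor its replicates is stated. The 2 deposited intensity tables differed by at most 5.00e-07.

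Log2 ratios of intensities were centred on probes detected in both groups. The 22935 probes with 1 symbol entered, symbols were updated through RefSeq identifiers (19793 matched, 64 of 66 family probes), and the brightest probe stood for a gene. A gene detected in the brighter group alone had a bound and entered medians so. The other group was set at the higher of its value and the lowest detected intensity. Bounds leave out the deposited errors. Deposited p-values were adjusted by the Benjamini-Hochberg method. Calls use these values because the table has none per array, and precision depends on how many arrays were run. The median error of a log2 ratio was 0.20. Members, gene lists and tests were chosen with earlier results of these data known. One list is not reported here. Every detected member was named, and of each other list the called genes and those with the 3 smallest adjusted p-values. Python 3.11.15 and pandas 2.3.3 were used, with 10 alternatives planned and 1 added.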

Additional observations from a re-analysis of the deposited data

How the results depend on the processing

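Over 11 alternatives, 253 of 257 values of the 24 measured members kept their direction and their side of the threshold. The calls of SEMA7A, SEMA3F, PLXNA2 and EPHB2 were made under all 11. Every alternative used the deposited p-values, which were not recomputed, so a call had little room to change. These calls therefore cannot show how significance depends on normalization, and the ratios alone were recomputed. Centring by 20 intensity bins was chosen after seeing the data. The other 4 values turned in sign, none of them called: SEMA4F (-0.34) and SEMA6C (-0.36) without centring, and EPHB4 with each group's own median (0.0050) and with an offset of 32 (0.0082). RASA1 also turned without centring (-0.018). Without centring the class medians were -0.81 for ephrin ligands, -0.63 for Eph receptors, -0.53 for semaphorins and -0.72 for plexins, and the median of all measured genes was -0.43. The number of called members with at least 2-fold change was 0 as reported. It was 1 without centring (PLXNA2), 1 with each group's own median, 1 with the mean of all probes and 1 with centring by intensity bin (SEMA7A in each), and 2 at a 1.5-fold limit. Without dim genes 19 members were measured, with medians of -0.44 for plexins and -0.005 for semaphorins. At a detection p below 0.01, 22 members were measured and the plexin median was -0.44. With an offset of 32 the Eph receptor median was -0.11. Leaving out a replicate was not possible with 1 value per group. No paired analysis was possible because the table holds 1 combined value per group. The number of arrays limits precision, and members near the lowest detected intensity have the least signal over background.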

Other observations

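Other guidance families were read alongside. Of 27 netrin, slit and repulsive guidance genes and their receptors, 8 were measured, 3 above and 5 below 0 with a median log2 ratio of -0.11, and none was called. UNC5A, a netrin receptor, had a log2 ratio of 0.44 ± 0.16, with an adjusted p of 0.245. It read 150 in exposed and 149 in control cells, and its ratio lay at 0.01 without centring. NTN1, which encodes netrin 1, had a log2 ratio of -0.46 ± 0.29 with an adjusted p of 0.301, at 306 in exposed and 566 in control cells. ROBO3, a receptor related to the slit receptors, had a log2 ratio of -0.18 ± 0.20.

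A probe that names both EIF2B5 and EPHB3 lay outside the family by its rule. It read 139 ± 11.9 in exposed cells, against 330 ± 11.7 in control cells, a log2 ratio of -0.81 ± 0.13. The authors' deposited table gives -0.79 with a p-value of 4.42e-05, or 0.00236 when adjusted over all probes. Which gene it measures was not tested. The probes shared by EFNA2 with MUM1 and by SEMA3D with another gene were not detected.

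The authors' deposited table also gives log2 ratios for 6 family probes that were not detected in either group. They were 0.31 for EPHA8, 0.09 for EFNA1, -0.11 for a weak EFNA4 probe, -0.11 for PLXNB1, -0.42 for SEMA4G and -0.20 for SEMA6A, with unadjusted p-values between 0.124 and 0.891. For 18 of the 23 members detected in both groups, the ratio used here lay within 0.1 of the one in the authors' deposited table. The largest gap was 0.34 for EFNB2.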
